A study of Mus musculus with 36 samples.

Results

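The genes described are 8 ligands of the CC chemokine family, Ccl2, Ccl3, Ccl4, Ccl5, Ccl6, Ccl9, Ccl17 and Ccl22, taken by symbol from a table of 53299 genes. They were followed in FLT3 ligand-induced mouse dendritic cells of both conventional kinds, cDC1 and cDC2, whose source the labels give as bone marrow. Each kind was left untreated (labelled Nothing) or given LPS, PGPC, or LPS with PGPC, and 23 libraries in 8 groups were used, 3 per group and 2 for cDC2 with PGPC. All groups therefore share the FLT3 ligand induction and differ in cell kind and agent. LPS is the bacterial outer membrane lipid that Toll-like receptor 4 detects, and PGPC is an oxidized phospholipid. No label used here states strain, age, sex, dose or time. The series calls its replicates biological without saying whether they came from separate mice, so the p-values measure the spread between these libraries, which may be in part technical. Libraries of cDC1 carry the replicate numbers 1, 2 and 3, and those of cDC2 the numbers 4, 5 and 6. The 12 libraries with alum and the third cDC2 library with PGPC (replicate 6, 3805 counts) were left out.

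Chemokines are small secreted proteins that steer leukocytes along gradients by binding G protein-coupled receptors, and CC chemokines carry a pair of adjacent cysteines near the start of the mature protein. Dendritic cells sense microbes through Toll-like receptors, and LPS signals to NF-kB and to interferon regulatory factors, both of which act on chemokine genes. Ccl3, Ccl4 and Ccl5 draw in T cells and natural killer cells, Ccl2 binds Ccr2 and draws in monocytes, Ccl6 and Ccl9 are myeloid ligands found in rodents and bind Ccr1, and Ccl17 and Ccl22 bind Ccr4, a receptor of regulatory and helper T cells. Ccl22 is a known product of mature dendritic cells.

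The 23 libraries held 243870 to 16601064 counts (median 3351868) and 9687 to 15608 genes with a count. The shallowest was untreated cDC2 replicate 6, in which 3 counts stand for 11.2 CPM, so a value of 0 there allows a level up to about that size. Each level is a CPM value (counts scaled to the library total after TMM), given as mean ± SD over the libraries of a group, and log2 fold changes are given ± SE. Adjusted p-values come from edgeR's quasi-likelihood test with Benjamini-Hochberg adjustment over 12463 tested genes, and a gene was called at an adjusted p under 0.05. All 8 members were tested. The cDC1 markers fixed as a list of 9 genes summed to 1092 to 1813 CPM in untreated cDC1 and 161 to 201 CPM in untreated cDC2, and 6 of the 9 were called lower in cDC2. Among them, Irf8 stood at 899 ± 390 CPM in untreated cDC1 and 79.8 ± 22.4 CPM in untreated cDC2. Xcr1 was near 0 in both, at 0.177 ± 0.191 and 0.348 ± 0.393 CPM. The cDC2 marker list summed to 962 to 1441 CPM in untreated cDC2 and 327 to 595 CPM in untreated cDC1. Of 8 tested cDC2 markers, 3 were called higher in untreated cDC2 and 2 lower, among the latter Irf4 (-2.84 ± 0.60, adjusted p = 0.00327), so the cDC2 list did not move as one. With LPS the cDC2 list overlapped between the kinds, at 1097 to 4315 CPM in cDC2 and 894 to 1321 CPM in cDC1. Of its 8 tested genes, 1 was higher in cDC2 and 1 lower with LPS, and 0 were higher and 2 lower with both agents. The cDC1 list with LPS summed to 433 to 630 CPM in cDC1 and 102 to 257 CPM in cDC2. Genes of the ribosomal RNA locus took 40.7% to 71.9% of the counts in untreated cDC1, 13.9% to 25.9% with LPS, and 52.0% to 60.9% in the cDC2 libraries with PGPC. In bulk libraries a change in the number of cells that express a gene and a change in RNA per cell cannot be told apart.

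LPS raised 5 of these ligands in each cell kind, 4 of them in both. In cDC1, Ccl3, Ccl4, Ccl5, Ccl9 and Ccl22 rose, 5 of the 8, where 8.58% of all tested genes rose and 17.9% changed in either direction. In cDC2, Ccl2, Ccl3, Ccl4, Ccl5 and Ccl22 rose, again 5 of 8, where 5.82% of all tested genes rose and 8.52% changed. The cDC2 count was 4 in each of 6 fits that left out 1 library, as the call of Ccl2 was lost in all of them. None of the 8 fell in either kind, where 9.36% of tested genes fell in cDC1 and 2.7% in cDC2. The summed level of the 8 ligands was 69.7 ± 28.7 CPM in untreated cDC1 and 3497 ± 677 CPM with LPS, and 212 ± 25.2 CPM in untreated cDC2 and 4755 ± 1589 CPM with LPS. The median log2 fold change of the 7 ligands other than Ccl17 was 5.93 in cDC1 and 5.13 in cDC2, beside -0.12 and 0.03 over all tested genes. Over 8, with Ccl17 set against a limit of 3 untreated counts, it was 4.39 and 4.58. Markers of other cells moved with LPS. In cDC1 the 12 monocyte or macrophage genes summed to 1552 to 4270 CPM untreated and 815 to 1676 CPM with LPS (9 lower and 1 higher of 12 tested). The granulocyte list of 9 genes went from 47.0 to 199 CPM untreated to between 0 and 6.96 CPM (5 of 6 tested lower, with Elane, Mpo, Ctsg, Ngp and Ltf at 0 with LPS), and the plasmacytoid list of 8 genes from 179 to 355 CPM to between 78.5 and 117 CPM (2 of 7 tested lower, with Klk1 at 0 in both). In cDC2 the monocyte or macrophage list summed to 5650 to 7064 CPM untreated and 2552 to 4388 CPM with LPS (3 lower and 1 higher of 12). The plasmacytoid list there summed to 18.7 to 61.2 CPM untreated and 184 to 507 CPM with LPS (1 of 7 tested higher). In that list Ly6d and Klk1 were at 0 in both cDC2 groups, and Siglech was at 0 with LPS. The part of these markers of other cells in the results was not tested.

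**Figure D1:**
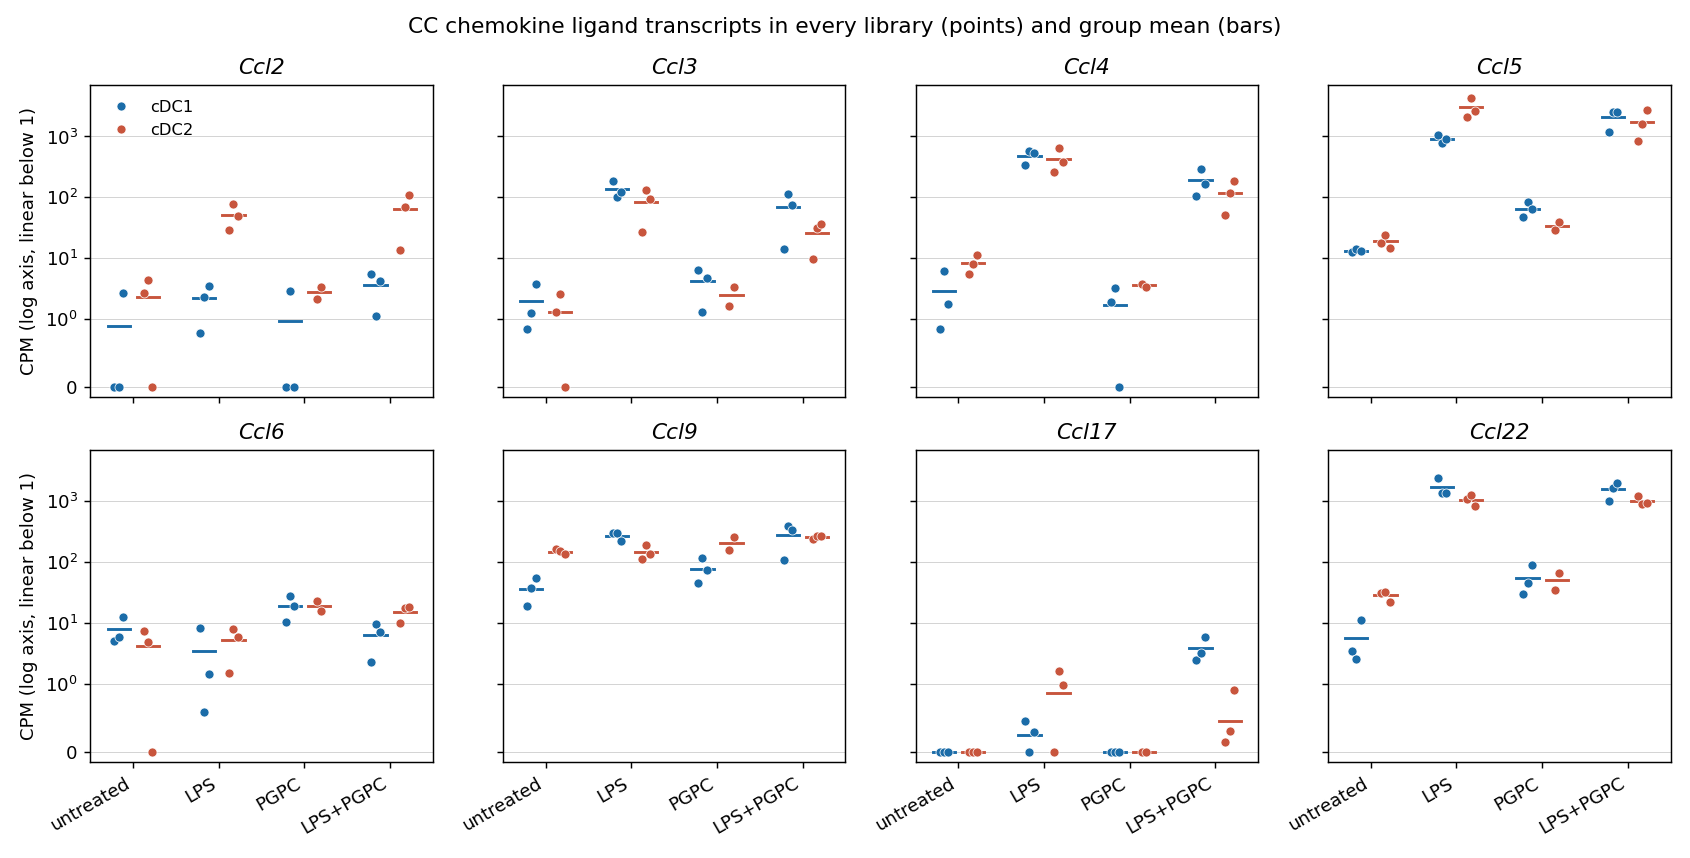
Level of each ligand in every library, in CPM of TMM-scaled totals on an axis that is logarithmic above 1 and linear below, with cDC1 in blue, cDC2 in red and a bar at each group mean. Ccl3, Ccl4, Ccl5 and Ccl22 stand in the LPS and LPS+PGPC groups above every untreated library of the same cell kind, Ccl2 does so in cDC2, and Ccl17 has a count in LPS-treated groups only.

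Ccl5, a ligand of Ccr1, rose with LPS in both kinds. In cDC1 it stood at 12.8, 14.4 and 13.02 CPM in the untreated libraries and at 1064, 769 and 897 CPM with LPS, a rise of 6.08 ± 0.50 (adjusted p = 4.28e-08). In cDC2 it stood at 18.2, 24.5 and 15.0 CPM untreated and at 2088, 4275 and 2625 CPM with LPS, a rise of 7.22 ± 0.53 (adjusted p = 7.59e-09). The groups lay far apart in both kinds. Ccl5 is also a product of T and natural killer cells, and the 8 markers of those cells fixed as a list summed to at most 2.78 CPM in any of the 23 libraries, with Ncr1, Gzma and Nkg7 at 0 in each of the 23.

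Ccl3 and Ccl4, neighbouring genes whose products attract T cells and natural killer cells, rose with LPS in both kinds. Ccl3 stood at 0.855, 1.27 and 3.78 CPM in untreated cDC1 and at 183, 101 and 122 CPM with LPS (5.93 ± 0.82, adjusted p = 2.12e-05). In cDC2 it stood at 1.34, 2.58 and 0 CPM untreated and at 27.1, 133 and 95.9 CPM with LPS (5.52 ± 0.89, adjusted p = 0.000169). Ccl3 thus had few counts before LPS, and the lowest treated library of either kind lay above every untreated one. Ccl4 stood at 0.855, 6.20 and 1.82 CPM in untreated cDC1 and at 341, 574 and 527 CPM with LPS (7.12 ± 0.89, adjusted p = 7.06e-06). In cDC2 it stood at 5.63, 8.01 and 11.2 CPM untreated and at 265, 644 and 382 CPM with LPS (5.86 ± 0.88, adjusted p = 8.32e-05). On GRCm38, Ccl3 lies on chromosome 11 at 83647844 to 83649355 on the minus strand and Ccl4 at 83662584 to 83664683 on the plus strand, 13228 bases apart. Ccl5 (83525778 to 83530518, minus strand) is in the same cluster, which spans 138906 bases from Ccl5 to Ccl4 and also holds Ccl9 and Ccl6. No stretch of 35 bases in the annotated transcripts of any of the 8 ligands occurs in another of them. For Ccl9, 3.35% of such stretches occur in genes outside the 8, 1462 genes in all, and for Ccl6 0.796% occur in 1 such gene.

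Ccl9 and Ccl6, which lie 9245 bases apart on the minus strand of chromosome 11 (Ccl9 at 83572919 to 83578636, Ccl6 at 83587882 to 83593087), were unlike in their calls, though the difference between the genes was not tested. Ccl9 stood at 18.8, 37.6 and 53.7 CPM in untreated cDC1 and at 296, 298 and 222 CPM with LPS, a rise of 2.86 ± 0.46 (adjusted p = 0.000112). In cDC2 it was high at the start, at 161, 150 and 135 CPM, and stood at 114, 192 and 133 CPM with LPS (-0.03 ± 0.44, adjusted p = 0.994). The cDC2 groups overlapped, and the LPS response of Ccl9 differed between the kinds by -2.89 ± 0.63 (cDC2 minus cDC1, adjusted p = 0.0171, with 1.33% of tested genes called in that interaction and 0.337% called lower). Ccl6 was low throughout and was called in no comparison. It stood at 5.13, 5.95 and 12.7 CPM in untreated cDC1 and at 8.30, 0.590 and 1.47 CPM with LPS (-1.07 ± 0.75, adjusted p = 0.340), and at 7.50, 4.91 and 0 CPM in untreated cDC2 against 1.54, 8.08 and 5.87 CPM with LPS (-0.04 ± 0.81, adjusted p = 0.996). Without cDC1 LPS replicate 1, its highest LPS library, the Ccl6 value in cDC1 was -2.85 (adjusted p = 0.0436). An overlapping gene on the other strand, E230016K23Rik, shares part of the Ccl6 locus, and these libraries do not mark strand.

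The sequences upstream of both genes are shown because Ccl9 was called with LPS in cDC1 and its neighbour was not. They are RefSeq sequences of GRCm38.p6, the 250 bases before each start site read 5′ to 3′ on the minus strand, chr11:83578637-83578886 for Ccl9 and chr11:83593088-83593337 for Ccl6. Capitals mark the matches to 4 motifs searched on both strands.
Ccl9: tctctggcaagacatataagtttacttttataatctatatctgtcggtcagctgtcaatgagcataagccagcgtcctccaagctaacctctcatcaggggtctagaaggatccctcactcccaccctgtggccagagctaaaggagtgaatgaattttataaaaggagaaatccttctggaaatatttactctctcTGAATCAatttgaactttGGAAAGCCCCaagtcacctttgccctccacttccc
Ccl6: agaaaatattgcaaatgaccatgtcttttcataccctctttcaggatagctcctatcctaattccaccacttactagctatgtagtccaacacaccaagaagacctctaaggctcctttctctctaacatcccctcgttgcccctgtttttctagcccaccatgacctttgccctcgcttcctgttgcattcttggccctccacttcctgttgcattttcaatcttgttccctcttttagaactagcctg
The motifs were an NF-kB site (GGG and TTTCC with any 2 bases between), an AP-1 site (TGANTCA), a STAT site (TTC and GAA with any 4 bases between) and an interferon response element (GAAA and GAAA with any 2 bases between), and no 2 matches overlapped. Ccl9 held TGAATCA from position -53 (AP-1, present in 6.75% of 32851 windows of that length) and GGAAAGCCCC from position -35 (NF-kB on the other strand, present in 1.41%), counted from the start site. The Ccl6 window held none of the 4, and neither did the window of Ccl3, which was called with LPS in both kinds. A match describes letters and shows no binding.

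Ccl2, which attracts monocytes through Ccr2, rose with LPS in cDC2. Its levels in cDC1 were 0, 0 and 2.72 CPM untreated and 0.803, 2.36 and 3.53 CPM with LPS (0.87 ± 1.31, adjusted p = 0.694). In cDC2 they were 2.68, 4.39 and 0 CPM untreated and 29.2, 77.6 and 48.9 CPM with LPS (4.02 ± 1.25, adjusted p = 0.0455). The cDC2 groups did not overlap, but the call was close to the threshold and was lost when any 1 of the 6 libraries was left out (adjusted p up to 0.209) and with DESeq2 (adjusted p = 0.0611). With LPS, Ccl2 was higher in cDC2 than in cDC1 by 4.64 ± 1.24 (adjusted p = 0.0196), and with LPS and PGPC by 4.14 ± 1.15 (adjusted p = 0.0289). The LPS response itself differed by 3.15 ± 1.78, which did not pass (adjusted p = 0.448). Ccl7, which lies 8258 bases beyond Ccl2 on chromosome 11 (Ccl2 at 82035571 to 82037453, plus strand) and also acts on Ccr2, was higher in cDC2 in the same comparisons, by 5.80 ± 1.06 with LPS (18.7 ± 10.4 against 0.423 ± 0.289 CPM, adjusted p = 0.00077) and by 3.65 ± 0.84 with LPS and PGPC (23.04 ± 12.5 against 1.79 ± 1.94 CPM, adjusted p = 0.00855). Markers of monocytes or macrophages moved with this difference. Their 12 genes summed to 2552 to 4388 CPM in cDC2 with LPS and 815 to 1676 CPM in cDC1 with LPS, where F13a1 was at 0, and 7 of the 12 were called higher in cDC2 and 1 lower. Their part in the result was not tested. A gene on the other strand, Gm17268, overlaps Ccl2.

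Ccl22 and Ccl17 lie on chromosome 8 with Cx3cl1 between them, and share the receptor Ccr4. With LPS in cDC1 the means of Ccl22 and Ccl17 were 728 and 0.48 CPM per kilobase of exon. Ccl22 (94745590 to 94751699, plus strand) stood at 3.42, 2.53 and 11.4 CPM in untreated cDC1 and at 2384, 1347 and 1347 CPM with LPS, the largest fitted LPS change among the 8 in that kind at 8.11 ± 0.63 (adjusted p = 2.16e-08). In cDC2 it stood at 31.1, 32.3 and 22.5 CPM untreated and at 1070, 1235 and 814 CPM with LPS (5.13 ± 0.55, adjusted p = 2.45e-06). The LPS response of Ccl22 was smaller in cDC2 by 2.98 on the log2 scale (-2.98 ± 0.69, adjusted p = 0.0263). Before LPS cDC2 was higher by 2.28 ± 0.52 (adjusted p = 0.00554), and with LPS the difference was -0.70 ± 0.46 (adjusted p = 0.405). The difference in LPS response of Ccl22 was called in 6 of 12 fits that left out 1 library, and not without cDC1 LPS replicate 1, untreated cDC1 replicate 1 or 2, cDC2 LPS replicate 6 or untreated cDC2 replicate 4 or 5 (adjusted p 0.0545 to 0.0819). That of Ccl9 was called in 9 of 12, and not without cDC1 LPS replicate 2, cDC2 LPS replicate 6 or untreated cDC2 replicate 4 (adjusted p 0.0524 to 0.0573). With all 36 libraries in the fit neither was called (adjusted p = 0.9999 for Ccl22 and 0.994 for Ccl9).

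Ccl17 (94810453 to 94812036, plus strand), 58753 bases beyond Ccl22, had no count in any untreated library or in any library with PGPC alone. With LPS it had 5, 0 and 1 counts in cDC1 and 0, 3 and 1 counts in cDC2, and was not called (adjusted p = 0.173 and 0.235). Set against a limit of 3 counts over the 3 untreated libraries, the LPS counts were 1.92-fold and 2.17-fold higher. That limit allows for counting error in the untreated libraries only, so neither fold is a firm lower bound. Of these 6 and 4 counts, 5 were in cDC1 LPS replicate 1 and 3 in cDC2 LPS replicate 5, and without that library no such fold can be given. With LPS and PGPC it had 19, 28 and 63 counts in cDC1, or 2.44, 3.18 and 5.90 CPM, and 1, 1 and 4 counts in cDC2, or 0.149, 0.305 and 0.912 CPM. In cDC1, Ccl17 with LPS and PGPC was 21.1-fold above the same limit of 3 counts over the 3 untreated libraries. Ccl17 reached 10 counts in those 3 cDC1 libraries only and passed the filter through them, so it had to differ there, and its call (adjusted p = 0.0187) is given as a description. Without untreated cDC1 replicate 2 or 3 its adjusted p was 0.0716 or 0.0651. The difference between LPS with PGPC and LPS alone in cDC1 was 3.59 ± 1.47 (adjusted p = 0.222), although the groups did not overlap.

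Upstream sequence is shown for Ccl22 and Ccl17 because they stood at such unlike levels with LPS. For Ccl22 it is the 156 bases that precede both the RefSeq and the GENCODE start site, chr8:94745434-94745589, and for Ccl17 the 250 bases before the start site, chr8:94810203-94810452, both GRCm38.p6 on the plus strand.
Ccl22: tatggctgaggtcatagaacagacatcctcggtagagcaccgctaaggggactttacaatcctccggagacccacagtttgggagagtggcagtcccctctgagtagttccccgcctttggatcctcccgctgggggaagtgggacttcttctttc
Ccl17: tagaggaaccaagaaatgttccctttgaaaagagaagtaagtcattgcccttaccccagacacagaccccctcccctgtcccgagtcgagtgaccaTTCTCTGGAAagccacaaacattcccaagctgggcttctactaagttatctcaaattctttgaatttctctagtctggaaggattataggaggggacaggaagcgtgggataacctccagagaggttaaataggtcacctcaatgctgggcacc
Ccl17 held the STAT motif TTCTCTGGAA from position -154 (in capitals; present in 5.85% of windows). The full 250-base RefSeq window of Ccl22 held none of the 4 motifs, and neither held the interferon response element, which 2.98% of windows hold. RefSeq upstream sequences were found for 5 of the 8 ligands.

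**Figure D2:**
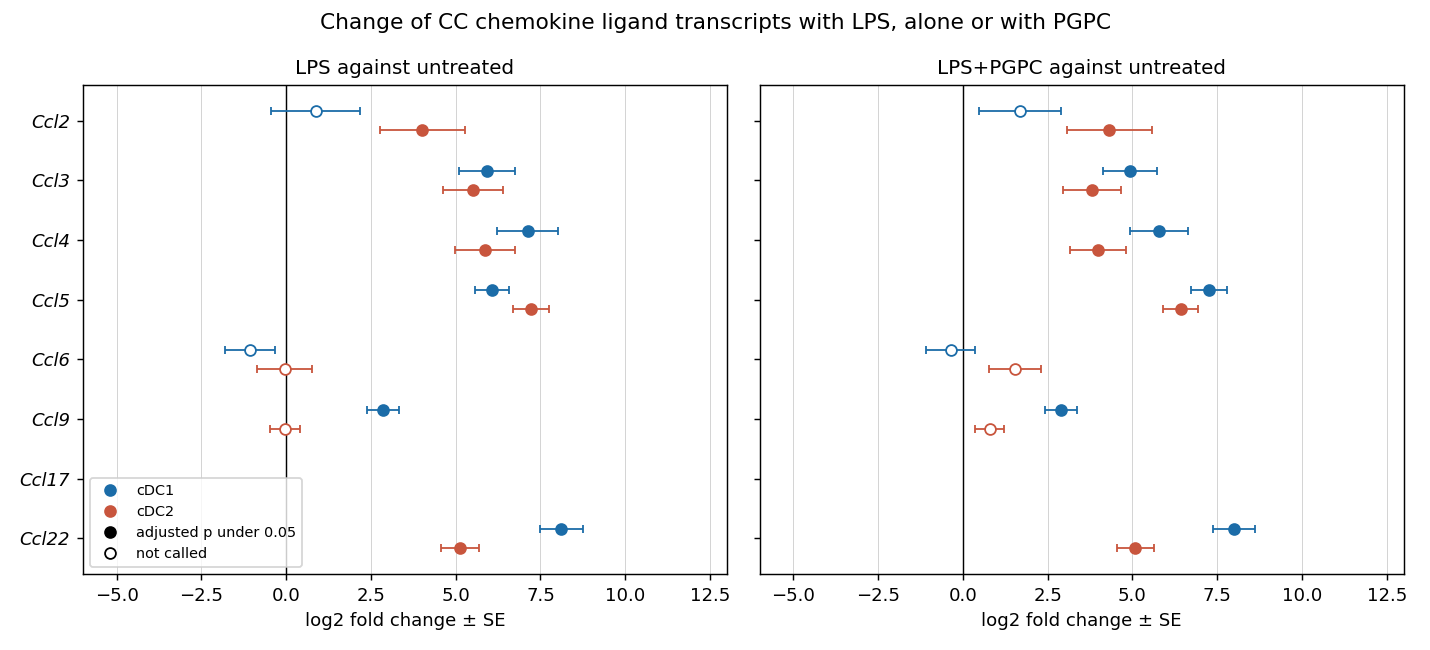
Log2 fold change ± SE of each ligand with LPS against untreated (left) and with LPS and PGPC against untreated (right), cDC1 in blue and cDC2 in red, filled where the adjusted p was under 0.05. Ccl17 is not drawn because the untreated groups had no count, and Ccl9 is filled in cDC1 only, at 2.86 and 2.90.

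Several LPS calls depended on which libraries were fitted. With all 36 libraries in the fit, alum included, Ccl9 in cDC1 (adjusted p = 0.350) and Ccl2, Ccl3, Ccl4 and Ccl22 in cDC2 (0.151, 0.0757, 0.0624 and 0.231) were no longer called. With the ribosomal RNA locus and mitochondrial genes left out of the totals, a list completed after seeing the data, the 5 called ligands of cDC1 had log2 fold changes of 2.98 (Ccl9), 6.04 (Ccl3), 6.20 (Ccl5), 7.27 (Ccl4) and 8.22 (Ccl22) and stayed called.

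PGPC alone raised Ccl22 and Ccl5 in cDC1, 2 of the 8, where 0.578% of all tested genes rose and 2.08% changed. Ccl22 stood at 29.6, 44.6 and 87.8 CPM with PGPC, each above the highest untreated library at 11.4 CPM (3.15 ± 0.52, adjusted p = 0.00206). Ccl5 stood at 48.4, 84.7 and 64.1 CPM against 12.8 to 14.4 CPM (2.28 ± 0.43, adjusted p = 0.00507). Both ligands stayed below their lowest LPS library, at 1347 CPM for Ccl22 and 769 CPM for Ccl5. Ccl9 stood at 44.6, 117 and 73.3 CPM and overlapped the untreated group (1.06 ± 0.44, adjusted p = 0.221), while Ccl3 at 6.40, 1.30 and 4.85 CPM and Ccl4 at 1.90, 3.26 and 0 CPM were near their untreated levels. Both calls were lost when only the 6 libraries of this comparison were fitted (adjusted p = 0.125 for Ccl22 and 0.0928 for Ccl5) and with all 36 libraries (0.743 and 0.539), while each held in all 6 fits that left out 1 library. Markers of other cells moved with PGPC in cDC1. The mast cell and basophil list summed to 52.8 to 95.5 CPM against 1.27 to 2.88 CPM untreated, with Prss34, Cpa3 and Cd200r3 called higher of 6 tested and only Mcpt4 of its 8 genes at 0. The granulocyte list summed to 259 to 1162 CPM against 47.0 to 199 CPM, with 0 of 6 tested genes called by edgeR, 5 at an unadjusted p under 0.05, and Elane at 0. Their part in the result was not tested.

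In cDC2, PGPC alone gave no called ligand (edgeR), where 0.016% of all tested genes were called. Ccl6 passed at an unadjusted p under 0.05, 1 of the 8, beside 5.8% of all tested genes, and DESeq2 called none. Ccl22 stood at 35.1 and 65.4 CPM against 22.5 to 32.3 CPM untreated (0.73 ± 0.55, adjusted p = 0.921), Ccl6 at 23.01 and 15.5 CPM against 0 to 7.50 CPM (1.89 ± 0.86, adjusted p = 0.845), Ccl5 at 29.0 and 39.6 CPM against 15.0 to 24.5 CPM (0.75 ± 0.49, adjusted p = 0.910) and Ccl4 at 3.84 and 3.44 CPM against 5.63 to 11.2 CPM (-0.99 ± 1.09, adjusted p = 0.969). These 4 ligands did not overlap between the groups, as was true of 29.2% of all tested genes with 2 libraries against 3.

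Adding PGPC to LPS gave no called ligand in either kind (edgeR), where 1.93% of tested genes were called in cDC1 and 0.385% in cDC2. In cDC1, Ccl5 had an unadjusted p under 0.05, beside 16.7% of all tested genes. Ccl17 did too but is not counted, as it passed the filter through cDC1 with LPS and PGPC alone. In cDC2 there were 2 at an unadjusted p under 0.05 (Ccl3 and Ccl4), beside 8.05%, and DESeq2 called none in either kind. In cDC1, Ccl5 stood at 1178, 2508 and 2495 CPM with both agents, above the highest LPS library at 1064 CPM (1.18 ± 0.40, adjusted p = 0.129). In cDC2 it stood at 838, 1586 and 2767 CPM against 2088 to 4275 CPM with LPS (-0.79 ± 0.40, adjusted p = 0.652), and the groups overlapped. The difference between those changes was -1.97 ± 0.57 (cDC2 minus cDC1), with an unadjusted p of 0.00194 and an adjusted p of 0.336. No ligand was called in that interaction, where 0.00802% of tested genes were, and DESeq2 called none. Not counting Ccl17, Ccl5 alone had an unadjusted p under 0.05, beside 7.99% of all tested genes.

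Ccl4 was lower with both agents than with LPS in each kind without overlap. It stood at 105, 298 and 166 CPM in cDC1 (-1.34 ± 0.67, adjusted p = 0.320) and at 51.3, 117 and 185 CPM in cDC2 (-1.87 ± 0.69, adjusted p = 0.373). Of the settings tried, the cDC2 value passed in the fit without a filter on low counts (-1.80, adjusted p = 0.0175). Ccl3 stood at 14.5, 115 and 76.4 CPM in cDC1 (-0.98 ± 0.64, adjusted p = 0.455) and at 9.81, 31.8 and 36.5 CPM in cDC2 (-1.72 ± 0.66, adjusted p = 0.422), overlapping LPS alone in both. Ccl22 was close to its LPS level, at 1017, 1666 and 1996 CPM in cDC1 (-0.12 ± 0.45) and 1216, 886 and 912 CPM in cDC2 (-0.05 ± 0.45). Ccl9 stood at 107, 397 and 331 CPM in cDC1 (0.03 ± 0.43) and at 235, 271 and 265 CPM in cDC2, above its LPS range of 114 to 192 CPM (0.81 ± 0.44, adjusted p = 0.707). Ccl6 stood at 2.31, 9.44 and 7.12 CPM in cDC1 and at 10.1, 17.4 and 18.5 CPM in cDC2 (1.58 ± 0.78, adjusted p = 0.632), and Ccl2 at 5.52, 1.14 and 4.21 CPM in cDC1 and at 14.0, 69.6 and 109 CPM in cDC2 (0.30 ± 1.01, adjusted p = 0.999). In cDC1, not counting Ccl17, which passed the filter through the group with both agents, groups did not overlap for Ccl4 and Ccl5, beside 26.4% of all tested genes. In cDC2 they did not overlap for 3 of 8 ligands (Ccl4, Ccl6 and Ccl9), beside 13.9%.

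**Figure D3:**
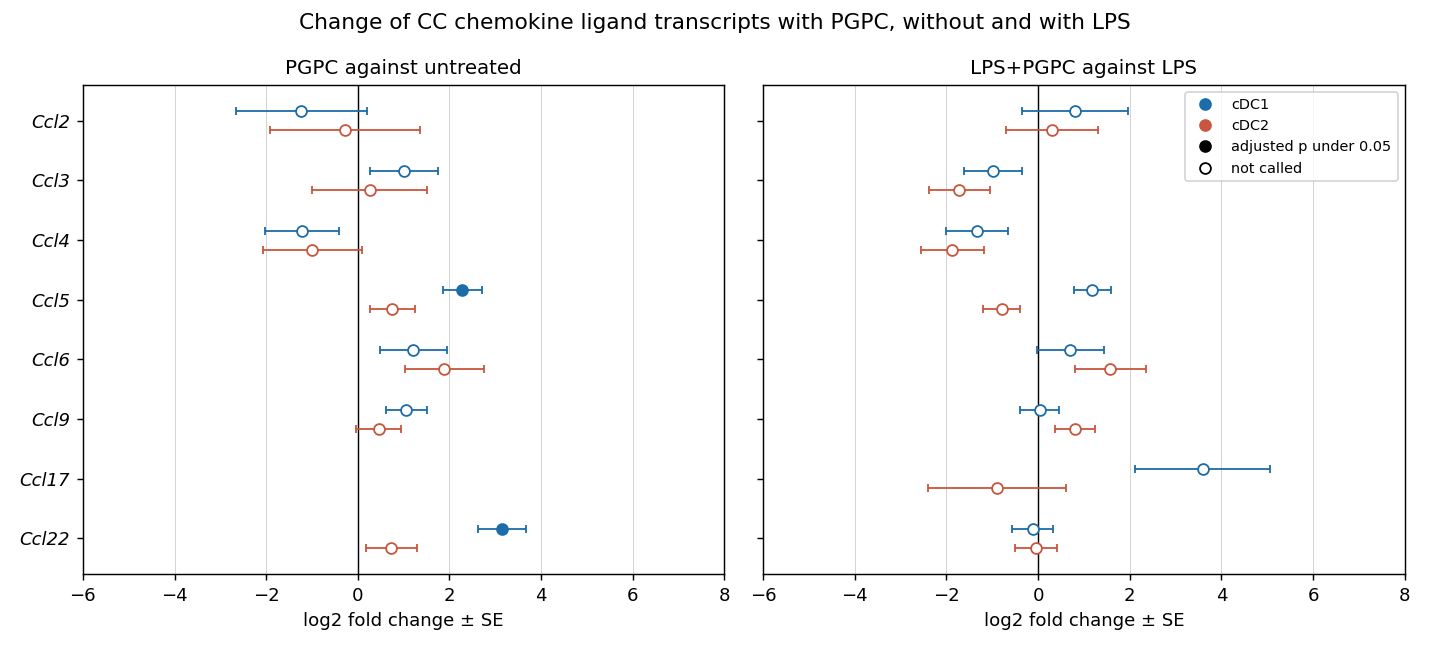
Log2 fold change ± SE of each ligand with PGPC against untreated (left) and with LPS and PGPC against LPS (right), cDC1 in blue and cDC2 in red, filled where the adjusted p was under 0.05. Ccl5 (2.28) and Ccl22 (3.15) in cDC1 are the filled points and both are on the left, and Ccl17 is drawn only where a group had a count.

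Against untreated cells, LPS with PGPC raised 5 of 8 ligands in cDC1, not counting Ccl17, where 6.58% of tested genes rose and 11.9% changed. They were Ccl22 (7.996 ± 0.63), Ccl5 (7.25 ± 0.53), Ccl4 (5.78 ± 0.85), Ccl3 (4.94 ± 0.80) and Ccl9 (2.90 ± 0.47). Ccl17 was also called, but passed the filter through this group alone. In cDC2 5 of 8 rose, where 5.42% of tested genes rose and 7.62% changed, namely Ccl5 (6.43 ± 0.52), Ccl22 (5.08 ± 0.55), Ccl2 (4.32 ± 1.26, adjusted p = 0.0335), Ccl4 (3.99 ± 0.83) and Ccl3 (3.80 ± 0.86). These comparisons share their untreated libraries with those of LPS alone. In cDC2, Ccl2 kept its call without LPS and PGPC replicate 4 and lost it without any other of the 6 libraries (adjusted p up to 0.166), and Ccl3 lost it without untreated replicate 4 (adjusted p = 0.0666). With all 36 libraries in the fit, Ccl3 and Ccl9 in cDC1 (adjusted p = 0.0766 and 0.420) and Ccl2, Ccl3, Ccl4 and Ccl22 in cDC2 (0.132, 0.266, 0.256 and 0.247) were not called.

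Whether the agents add on the log scale was tested as LPS with PGPC minus LPS minus PGPC plus untreated. In cDC1 the change with both agents fell short of the sum for Ccl22, the 1 ligand of 8 called (-3.27 ± 0.68, adjusted p = 0.0175, beside 1.28% of tested genes called and 0.369% called lower). Each agent alone raised Ccl22, and both together left it near the level of LPS alone. The call held in 11 of 12 fits that left out 1 library and was lost without cDC1 LPS replicate 1 (-2.94, adjusted p = 0.0655) and with all 36 libraries (adjusted p = 0.864). The mast cell and basophil list summed to 1.47 to 5.31 CPM with LPS and 0.910 to 2.90 CPM with both agents, beside its 52.8 to 95.5 CPM with PGPC, and its part in the result was not tested. In cDC2 no ligand was called in this test (edgeR), where 0.0321% of tested genes were. Ccl5 alone had an unadjusted p under 0.05 there (-1.54 ± 0.63, adjusted p = 0.828), 1 of the 8 beside 5.31% of all tested genes, and DESeq2 called none.

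Between the kinds, cDC2 had more Ccl9 and Ccl22 before treatment, 2 of 8 ligands, where 4.01% of tested genes were higher in cDC2 and 10.2% differed. Ccl9 stood at 149 ± 13.1 CPM in cDC2 and 36.7 ± 17.5 CPM in cDC1 (2.00 ± 0.45, adjusted p = 0.0056), and Ccl22 at 28.6 ± 5.36 and 5.77 ± 4.86 CPM. Of other markers, 5 of 7 tested plasmacytoid genes and 5 of 6 granulocyte genes were lower in untreated cDC2, with the latter list at 0 to 1.61 CPM, and 4 of 12 monocyte or macrophage genes were higher and 1 lower, and their part in the result was not tested. With LPS, Ccl2 and Ccl5 were higher in cDC2, 2 of 8, where 5.59% of tested genes were higher and 7.8% differed. Ccl5 stood at 2996 ± 1140 CPM in cDC2 and 910 ± 148 CPM in cDC1 (1.72 ± 0.41, adjusted p = 0.00831), without overlap. That call was lost without cDC2 LPS replicate 5, the highest library (1.37, adjusted p = 0.0555), and that of Ccl2 without cDC1 LPS replicate 1 or 2 or cDC2 LPS replicate 5 (adjusted p = 0.117, 0.0629 and 0.068). With LPS and PGPC only Ccl2 of the 8 was called, where 4.6% of tested genes were higher in cDC2 and 7.14% differed, and it kept the call without cDC2 replicate 4 and lost it without any other of the 6 libraries (adjusted p up to 0.114). Ccl5 was then at 1730 ± 973 CPM in cDC2 and 2060 ± 764 CPM in cDC1 (-0.25 ± 0.40, adjusted p = 0.793).

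With PGPC alone no ligand was called between the kinds (edgeR), where 12.1% of tested genes differed. Ccl9 had an unadjusted p under 0.05, 1 of 8 beside 27.4% of all tested genes, at 205 ± 67.8 CPM in cDC2 (n = 2) and 78.2 ± 36.3 CPM in cDC1 (1.39 ± 0.48, adjusted p = 0.0591), and was the 1 ligand that DESeq2 called (adjusted p = 0.0267). Without cDC1 PGPC replicate 2, Ccl9 was called (1.93, adjusted p = 0.0233). Ccl2 was then called too, but with 0 counts left in cDC1 and 4 and 2 counts in cDC2, so no fold is given. With all 36 libraries in the fit, none of the differences between the kinds was called (adjusted p = 0.662 for Ccl22 and 0.657 for Ccl9 untreated, 0.0654 for Ccl2 and 0.522 for Ccl5 with LPS, and 0.12 for Ccl2 with both agents).

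Per kilobase of exon, Ccl5 led in 6 of the 8 groups and Ccl9 in the other two, untreated cDC2 and cDC2 with PGPC. In untreated cDC1, Ccl5 (14.0 CPM per kilobase, range 13.4 to 15.0) and Ccl9 (12.1, range 6.18 to 17.6) overlapped at the top, and Ccl22 (2.48, range 1.09 to 4.88) overlapped Ccl3, Ccl4 and Ccl6. With LPS in cDC1 the order was Ccl5 (948, range 801 to 1109), Ccl4 (728, range 517 to 870) and Ccl22 (728, range 579 to 1026), which overlapped, then Ccl3 (177, range 132 to 239) and Ccl9 (89.3, range 72.8 to 97.9), which did not. With LPS in cDC2, Ccl5 (3121, range 2175 to 4453) stood above Ccl4 (652, range 401 to 975) without overlap. Ccl22 (447, range 350 to 531) overlapped Ccl4, and Ccl3, Ccl9 and Ccl2 overlapped each other at means of 111, 48.1 and 45.6. In untreated cDC2, Ccl9 led at 48.8 (range 44.2 to 52.8) above Ccl5 at 20.04 (range 15.6 to 25.6). With LPS and PGPC in cDC1, Ccl5 (2146, range 1227 to 2613) stood above Ccl22 (671, range 437 to 858), and in cDC2 Ccl5 (1803, range 873 to 2883) stood above Ccl22 (432, range 381 to 523).

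**Figure D4:**
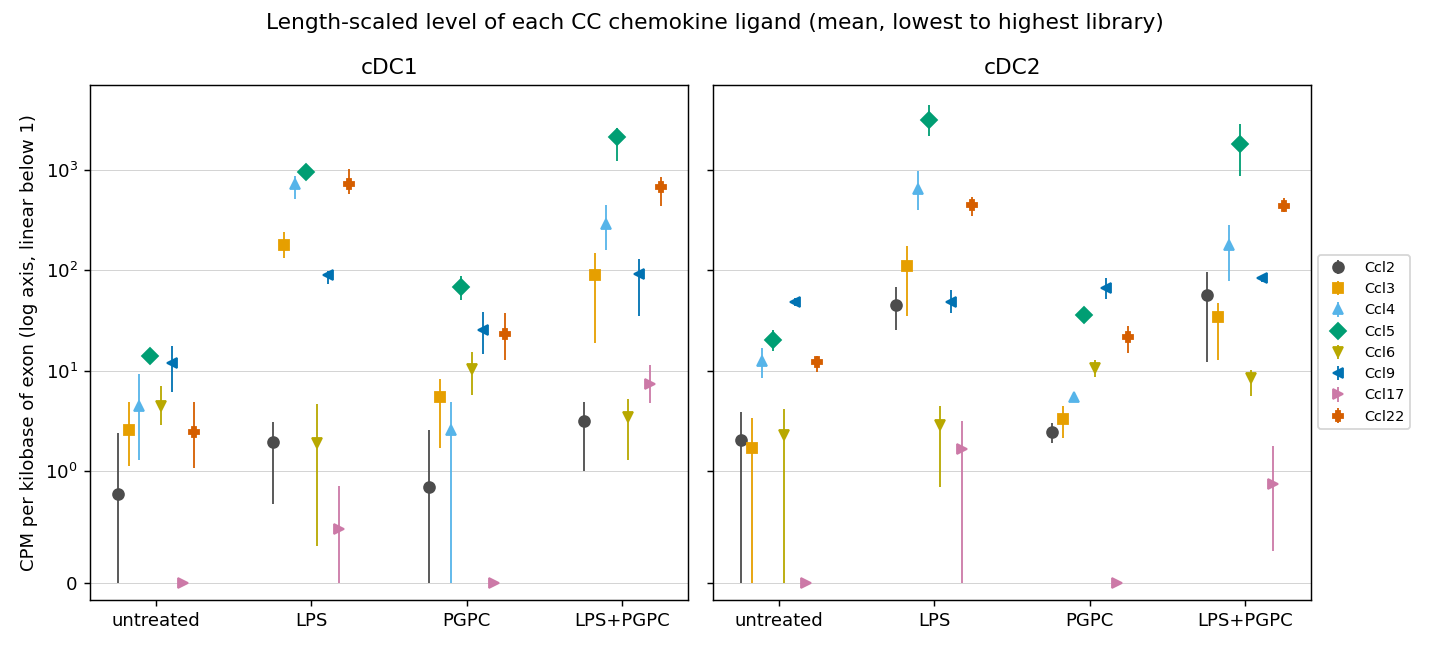
Level of each ligand per kilobase of annotated exon in cDC1 (left) and cDC2 (right), as the mean with a line from the lowest to the highest library, on an axis that is logarithmic above 1. Ccl5 is highest wherever LPS was given, and Ccl9 is highest in untreated cDC2 (48.8) and in cDC2 with PGPC (67.4).

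Of 13 other CC ligand genes, fixed as a list with earlier results known, 2 were tested, Ccl7 and Ccl25, and apart from the higher Ccl7 in cDC2 given above neither was called in any comparison. Of 15 CC and atypical chemokine receptor genes, 8 were tested. LPS raised Ccr7, which guides dendritic cells to lymph nodes, and Ccrl2, a non-signalling relative, and lowered Ccr2, in both kinds (2 higher and 1 lower of 8 in each, with a median of -0.43 in cDC1 and -0.10 in cDC2 beside -0.12 and 0.03 over all genes). Ccr7 rose by 5.66 ± 0.64 in cDC1 and 4.06 ± 0.59 in cDC2, and Ccr2 fell, with changes of -2.66 ± 0.55 and -3.996 ± 0.65. In cDC2, where Ccl2 rose, its receptor gene Ccr2 stood at 54.1 ± 11.7 CPM untreated and 2.94 ± 3.40 CPM with LPS. Ccr1, receptor of Ccl3, Ccl5, Ccl6 and Ccl9, was higher with PGPC in cDC1 (62.7 ± 17.1 against 15.1 ± 10.3 CPM, 2.03 ± 0.49, adjusted p = 0.0297) and with LPS and PGPC against LPS in cDC2 (88.8 ± 24.0 against 18.4 ± 6.51 CPM, 2.27 ± 0.51, adjusted p = 0.0421). Ccr4, receptor of Ccl17 and Ccl22, was at most 1.49 CPM in any library.

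Of 29 tested genes of a list of NF-kB, interferon regulatory, STAT, AP-1 and RNA decay factors, LPS raised 12 and lowered 3 in cDC1 (median 1.11 beside -0.12 over all genes) and raised 15 and lowered 1 in cDC2 (median 1.604 beside 0.03). Relb, an NF-kB subunit, rose by 4.75 ± 0.52 in cDC1 (adjusted p = 1.67e-06) and 2.98 ± 0.49 in cDC2, Irf7, an interferon regulatory factor, by 5.49 ± 0.68 and 5.14 ± 0.67, and Nfkbia, the NF-kB inhibitor, by 2.83 ± 0.45 and 3.37 ± 0.47. With PGPC alone in cDC1, 1 of the 29 was called, beside 2.08% of all tested genes. It was the RNA-binding protein gene Elavl1, which fell by 1.86 ± 0.36 on the log2 scale (adjusted p = 0.00639).

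Genes whose pattern was most like each ligand were ranked by Pearson's r of log2 CPM over the 23 libraries, which share groups, so r follows the group means. The nearest to Ccl22 were Ccr7 (0.97), Traf1 (0.97) and Il4i1 (0.95). Nearest to Ccl5 were Sprr2d (0.96), Adora2a (0.95) and Mxd1 (0.95), to Ccl4 Tspan3 (0.95), Zfp811 (0.95) and Il6 (0.94), and to Ccl3 Bcl2a1a (0.94), Synpo2 (0.93) and Zfp811 (0.93). Ccl2 was nearest to Slc44a5 (0.88), Irgm2 (0.87) and Rsad2 (0.87), Ccl9 to Rgs1 (0.85), Cd72 (0.82) and Oas1a (0.82), and Ccl6 to Fxyd5 (0.84), BC028528 (0.81) and Tpi1 (0.80). The sparse Ccl17 was nearest to Cd74 (0.92), Csn2 (0.91) and Iscu (0.88). Among the ligands, Ccl5 and Ccl22 were the closest pair (0.95), and Ccl6 had an r between -0.34 and 0.17 with the other 7. After group means were removed, r ran from -0.43 (Ccl4 and Ccl22) to 0.69 (Ccl3 and Ccl6), with 0.25 for Ccl5 and Ccl22.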

How the data were processed

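The authors deposited 1 table of expected counts per gene symbol for 36 libraries, made with bcl2fastq 2.2, RSEM and GRCm38 per the submitters' processing notes; 21.0% of its values above 0 were not whole, and all were rounded. Per the labels' protocols, RNA was extracted with an RNeasy Plus Micro kit, amplified by Smart-Seq2 from RNA of about 2000 cells and sequenced with Nextera XT libraries. From the table, 23 libraries in 8 groups were fitted together with edgeR 4.0.16 (R 4.3.3; filterByExpr with a minimum count of 10 and total of 15, TMM scaling, robust quasi-likelihood test, Benjamini-Hochberg adjustment over 12463 genes, threshold 0.05). The log2 CPM values behind the correlations used a prior count of 2, and an SE is the size of the log2 fold change divided by the square root of F. The 12 alum libraries and 1 cDC2 PGPC library were left out. The 8 ligands and all lists were chosen with earlier results of these data known. Beside the ligands, the genes named were the 3 most correlated with each, up to 4 per pathway list and comparison by adjusted p, partner receptors and list markers. Alternatives were median-ratio scaling, no filter, DESeq2 1.42.0, other library sets, a replicate block, ribosomal and mitochondrial genes left out, and each library left out. The script was tested on simulated data. Motifs were searched in RefSeq promoters, and exon lengths came from the GRCm38 annotation.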

Additional observations from a re-analysis of the deposited data

Results flagged for a closer look

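The change with LPS differed between cDC2 and cDC1 in a test of the difference itself for Ccl9, by -2.89 on the log2 scale, and for Ccl22, by -2.98. In cDC1 the log2 change of Ccl22 with both agents differed from the sum of its log2 changes with each agent, by -3.27. That test is of adding on the log scale and not in CPM. None of the 3 was called with all 36 libraries in the fit (adjusted p = 0.994, 0.9999 and 0.864 by edgeR).

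The libraries with LPS and alum, which were left out of every comparison, held some ligands above every untreated library and others at 0. Values are CPM of unscaled total counts, in libraries that held 365128 to 3219395 counts and 948 to 2610 genes with a count. In cDC1 with LPS and alum, Ccl22 had a mean of 5515 (4625 to 6623, beside 1.62 to 10.1 in untreated cDC1), Ccl5 4208 (3791 to 4673, beside 6.07 to 13.2), Ccl3 1664 (1180 to 1941, beside 0.405 to 3.36) and Ccl4 1082 (563 to 1439, beside 0.405 to 5.66). In cDC2 with LPS and alum, Ccl5 had a mean of 5324 (3062 to 9171, beside 16.4 to 24.4 in untreated cDC2). There Ccl22 stood at 0, 6398 and 16.4, Ccl3 at 0, 904 and 0, Ccl4 at 799, 898 and 0, and Ccl6 and Ccl9 at 0 in all 3 libraries (Ccl9 beside 148 to 179 untreated). In cDC1 Ccl9 stood at 465, 0.621 and 802 and Ccl6 at 325, 88.2 and 0.659. Ccl2 and Ccl17 were at 0 in all 6.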

How the results depend on the processing

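No called value changed its sign under any alternative. Over the single ligands under the other settings, 851 results stayed called or uncalled as before, 26 lost a call and 3 gained one. Among the 851, 10 uncalled values changed sign. With 1 library left out, 832 stayed as before, 33 lost a call and 3 gained one, and among the 832, 52 uncalled values changed sign. With all 36 libraries in the fit, the number of called ligands was 1 for LPS in cDC2, 0 for PGPC in cDC1, 3 in cDC1 and 1 in cDC2 for LPS with PGPC against untreated, 0 between the kinds when untreated, with LPS and with both agents, and 0 for the difference in LPS response and for the test of added effects in cDC1. It was 0 for PGPC in cDC1 when only the groups compared were fitted, 1 for PGPC added to LPS in cDC2 without a filter, and 1 between the kinds with PGPC under median-ratio scaling and 1 with DESeq2. The cause was not tested. With 1 library left out, the count was 4 in every fit for LPS in cDC2 and 5 to 6 for LPS in cDC1. It ran from 3 to 5 for LPS with PGPC against untreated in cDC2, from 0 to 2 between the kinds with LPS, 0 to 2 with PGPC and 0 to 1 with both agents, from 0 to 2 for the difference in LPS response and from 0 to 1 for added effects in cDC1.

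Over all genes, the fit of 36 libraries called 596 genes for LPS in cDC1 (2235 in the 23 libraries), 232 in cDC2 (1062), 43 for PGPC in cDC1 (259), 8 and 2 for PGPC added to LPS (241 and 48), 362 and 155 for both agents against untreated (1480 and 950), 118, 300, 285 and 143 between the kinds untreated, with LPS, PGPC and both (1265, 972, 1502 and 890), 6 for the difference in LPS response (166) and 18 for added effects in cDC1 (159). DESeq2 called 642 for PGPC in cDC1, 14 for PGPC in cDC2 (2 in the main test), 722 and 190 for PGPC added to LPS, 420 for the difference in LPS response, 52 for the difference in PGPC effect on LPS (1) and 506 and 28 for added effects (4 in cDC2). Without a filter these were 632, 33, 585 and 156, 425, 97, and 592 and 28. With only the groups compared there were 8 for PGPC in cDC1, 210 for PGPC in cDC2, 13 for PGPC added to LPS in cDC2, 1631 for both agents in cDC2 and 956 between the kinds with PGPC. With CT010467.1, a ribosomal locus gene added after seeing the data, left out as well, the share of called genes that were higher went from 39.5% to 50.3% between the untreated kinds and from 74.7% to 60.4% for the difference in LPS response. Under median-ratio scaling it went from 72.9% to 61.5% for PGPC added to LPS in cDC2. The median change over all genes reached -0.19 between the kinds with PGPC and 0.18 for the difference in LPS response.

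The replicate numbers were not taken to pair the libraries, since the labels do not say that they do. Only 6 of 18 same-numbered pairs in cDC1 and 2 of 15 in cDC2 had a correlation over 0.1. Same-numbered libraries had correlated deviations of -0.04 to 0.18 in cDC1 and -0.19 to 0.52 in cDC2, and 8 of 12 and 6 of 11 libraries correlated best with their own number. With a replicate block, 5 and 4 ligands were called for LPS in cDC1 and cDC2, 2 and 0 for PGPC, 6 (Ccl17 among them) and 4 for both agents against untreated, 0 and 0 for PGPC added to LPS, 2 for the difference in LPS response, 0 for the difference in PGPC effect on LPS, and 1 and 0 for added effects. Ccl2 in cDC2 lost its call with LPS (3.81, adjusted p = 0.0729 by edgeR) and with both agents (3.89, adjusted p = 0.0734). No paired analysis was possible between cDC1 and cDC2 within a treatment because they share no replicate numbers. Depth limited Ccl17 and the ligands at 0 in untreated cDC2 replicate 6.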
